A study of Mus musculus with 8 samples.

Results

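Gas6 and protein S (Pros1) are the secreted ligands of the receptor tyrosine kinases Tyro3, Axl and Mertk, together called the TAM receptors, and all 5 genes were followed here in EMS404 cells, a mouse cell line used as a model of the myofibroblastic hepatic stellate cell. The genes were taken by their symbols, each from the probe set that the platform annotation pairs with that symbol alone, and all 5 were found among 22180 measured genes, with 1 probe set each. Gas6 was picked because its values on single arrays were already known, so its difference between the groups is given as a description without a test, whereas the other 4 genes complete the family by name. Bnc2 encodes Basonuclin 2, a transcription factor with zinc fingers. The 4 siBNC2 arrays come from cells lipofected with a silencing RNA directed at Bnc2 and the 4 siCTRL arrays from cells given a non-targeting one, both at 20 nM, with RNA collected after 48 h. Both groups share the lipofection and the culture in serum, the cells are a single established line, and Bnc2 was silenced with a single reagent. The study describes its cell-line transcriptomes as independent replicates, while the labels name no cultures or rounds, so p-values measure the spread between these replicates of a single line.

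TAM ligands act as bridges. Their amino-terminal Gla domain, once carboxylated in a vitamin K-dependent step, binds phosphatidylserine exposed on dying cells or membrane vesicles, and their carboxy-terminal domains bind the receptor on a neighbouring cell. Gas6 binds Axl, Mertk and Tyro3, whereas protein S, better known as an anticoagulant cofactor in plasma, acts through Mertk and Tyro3. The receptors drive the uptake of apoptotic cells, restrain inflammatory signalling in macrophages and dendritic cells, and promote survival in many cell types. In the injured liver, hepatic stellate cells are known to express Gas6 and Axl, while Mertk is best known from macrophages.

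The values are log2 intensities after robust multi-array averaging (RMA) by the authors. Different probe sets are not on a shared scale, so levels are compared between arrays for 1 gene and not between genes. Bnc2 itself averaged 7.19 ± 0.68 in siBNC2 and 8.52 ± 0.35 in siCTRL (SD, n = 4 each), a difference of −1.33 ± 0.31 (SE), and its groups did not overlap (exact permutation p = 0.0286, two-sided, the smallest that 4 against 4 arrays allow). No gene passed an adjusted p of 0.05 with limma, 0 of 22180 or 0% of those tested, while 708, or 3.19%, had an unadjusted p under 0.05. The arrays numbered 4 stood apart in both groups. The mean of 23 interferon-stimulated genes was 9.18 on siBNC2 array 4 and 8.75 on siCTRL array 4, against 12.44 to 13.07 on the other siBNC2 arrays and 11.77 to 13.50 on the other siCTRL arrays. Results are therefore also given without those 2 arrays. Of 11 stellate and fibroblast markers 10, such as Col1a1, Pdgfra and Acta2, were above 5.66, and Thy1 was below it. This cut is the 40th percentile of the mean value of all genes. Of 14 macrophage and leukocyte markers 9 were below 5.66, among them Ptprc (4.77), Adgre1 (4.40) and Csf1r (5.44), while Cd68 (8.78) and Cd14 (9.72) were above it. The mean over these 14 markers lay between 5.76 and 5.98 on the siBNC2 arrays and between 5.74 and 5.94 on the siCTRL arrays. All 5 ligand and receptor genes had a mean above 5.66. That cut alone does not show expression. Of 10 hepatocyte markers 5 were below it, while others such as Apoa2 (7.15) and Cyp3a11 (6.91) were above it.

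Gas6 had the largest difference of the 5 genes. It read 9.42, 9.34, 9.80 and 10.79 on siBNC2 arrays 1 to 4, against 10.59, 10.12, 10.09 and 12.08 on siCTRL arrays 1 to 4. The siBNC2 arrays 1 to 3 thus lay below every siCTRL array, and siBNC2 array 4 lay above all siCTRL arrays except array 4. The means were 9.84 ± 0.67 in siBNC2 and 10.72 ± 0.94 in siCTRL (SD, n = 4 each), which differed by −0.88 ± 0.46 (SE), or 1.85-fold lower in siBNC2. Array 4 was the highest of its group for Gas6 in both groups, by 1.27 over the mean of the other 3 siBNC2 arrays and by 1.81 over the mean of the other 3 siCTRL arrays, which is a larger step than the one between the groups. Array 4 was the highest in both groups for 2970 genes, or 13.4% of all. Without siCTRL array 4 the Gas6 difference was −0.43 ± 0.33, and without siBNC2 array 4 it was −1.20 ± 0.43. Without both arrays numbered 4 it was −0.75 ± 0.19. The 3 siBNC2 arrays left were at 9.34 to 9.80 and the 3 siCTRL arrays at 10.09 to 10.59. With all arrays the groups overlapped. The separation came only after leaving out arrays already seen to move Gas6, and its share over all genes was not counted. Bnc2 was also highest on array 4 of each group, at 8.18 in siBNC2 and 9.03 in siCTRL, against 6.72 to 7.07 on the other siBNC2 arrays and 8.26 to 8.41 on the other siCTRL arrays. The part that the residual Bnc2 on siBNC2 array 4 has in the Gas6 value there was not tested.

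**Figure D1:**
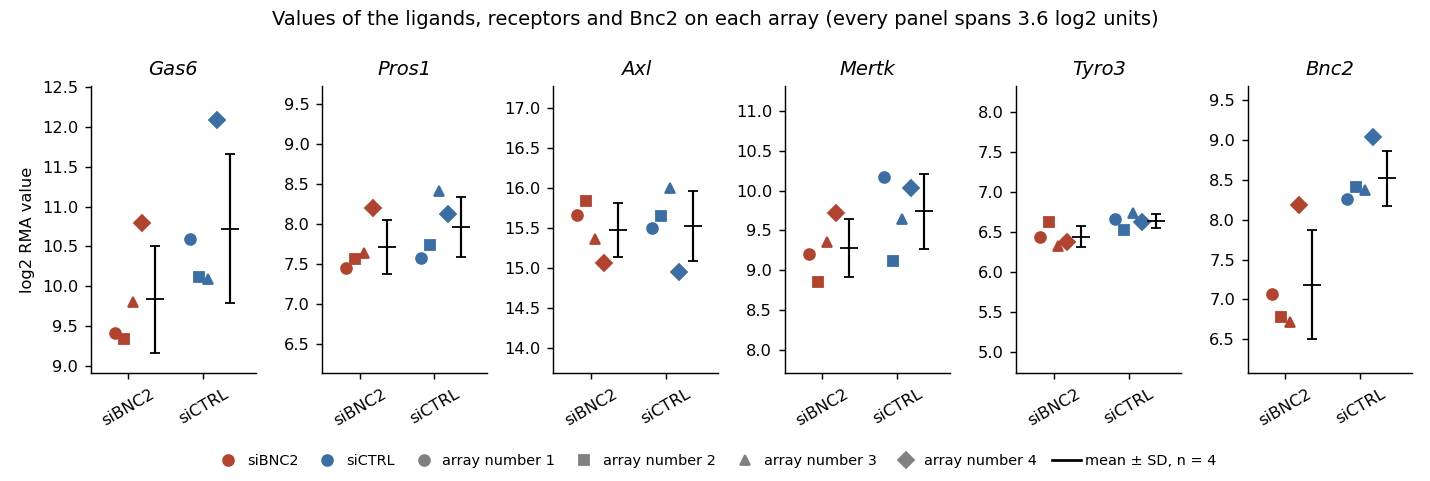
Log2 RMA values (y axis) of Gas6, Pros1, Axl, Mertk, Tyro3 and Bnc2 on the 4 siBNC2 arrays (left in each panel) and the 4 siCTRL arrays (right), with symbols for the array number and bars for the mean ± SD. Gas6 and Bnc2 peak on array 4 of each group, at 10.79 and 12.08 for Gas6, while Axl is lowest there, at 15.06 and 14.95.

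Pros1, the gene of protein S, read 7.45, 7.56, 7.64 and 8.20 on the siBNC2 arrays and 7.57, 7.74, 8.42 and 8.13 on the siCTRL arrays. The groups overlapped. The difference was −0.25 ± 0.22 (SE), with a 95% interval from −0.74 to 0.24, and it did not pass with limma (adjusted p = 1.00). Without siCTRL array 3, the highest of all, it was −0.10, and without siBNC2 array 4 it was −0.41. Without both arrays numbered 4 it was −0.36 ± 0.22.

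Mertk, the receptor best known for the clearance of apoptotic cells, was the receptor gene with the largest difference. It read 9.20, 8.85, 9.36 and 9.72 on the siBNC2 arrays, against 10.17, 9.12, 9.64 and 10.03 on the siCTRL arrays. The groups overlapped, with siCTRL array 2 below 3 of the siBNC2 arrays and siCTRL array 3 below siBNC2 array 4. Mertk averaged 9.28 ± 0.36 in siBNC2 and 9.74 ± 0.47 in siCTRL (SD, n = 4 each), a difference of −0.46 ± 0.25 (SE), or 1.37-fold lower in siBNC2. The 95% interval ran from −1.02 to 0.10, and limma gave an adjusted p of 1.00 (exact permutation p = 0.200). Without both arrays numbered 4 the difference was −0.51 ± 0.26, and leaving out single arrays gave −0.66 to −0.31.

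Tyro3 had the tightest replicates of the 5 genes, but its values lay near the medians of the arrays, 6.26 to 6.35. It read 6.45, 6.62, 6.32 and 6.38 on the siBNC2 arrays and 6.67, 6.52, 6.74 and 6.63 on the siCTRL arrays. All siBNC2 arrays except array 2 lay below every siCTRL array, and siBNC2 array 2 lay between siCTRL array 2 and array 4. The means were 6.44 ± 0.13 in siBNC2 and 6.64 ± 0.09 in siCTRL (SD, n = 4 each). The difference of −0.20 ± 0.11 (SE), or 1.15-fold lower, had a 95% interval from −0.45 to 0.06 and did not pass with limma (adjusted p = 1.00, exact permutation p = 0.0571). Leaving out single arrays gave −0.26 to −0.16, and without both arrays numbered 4 it was −0.18 ± 0.15.

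Axl was the member with the smallest difference. It read 15.65, 15.83, 15.36 and 15.06 on the siBNC2 arrays, against 15.50, 15.65, 16.00 and 14.95 on the siCTRL arrays, so that the siBNC2 arrays all lay within the range of the siCTRL arrays. The difference was −0.05 ± 0.24 (SE), with a 95% interval from −0.58 to 0.48 and an adjusted p of 1.00 with limma. Without both arrays numbered 4 it was −0.10 ± 0.19, and its sign turned without siBNC2 array 4 (0.09) or without siCTRL array 3 (0.11). The interval holds differences of the size of that of Mertk in either direction. Array 4 was the lowest of its group for Axl in both groups, by 0.56 under the mean of the other 3 siBNC2 arrays and by 0.77 under the mean of the other 3 siCTRL arrays. Such a low on array 4 of both groups was seen for 2389 genes, or 10.8% of all.

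Across the family, all 5 differences were below 0, as were 48.1% of all genes, and 0 of the 5 genes had groups that did not overlap, against 2.16% of all genes, or 0.798% counting only those lower in siBNC2. Of the 4 genes tested, 0 passed an adjusted p of 0.05 with limma and 0 had an unadjusted p under 0.05 in the fit with group as the only term. The plot of the differences shows the 8 leave-one-out values of each gene, which ran from −1.20 to −0.43 for Gas6. They ran from −0.41 to −0.10 for Pros1, −0.24 to 0.11 for Axl, −0.66 to −0.31 for Mertk and −0.26 to −0.16 for Tyro3. Gas6 was picked with its movement on single arrays known, so its wide range is only a description.

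**Figure D2:**
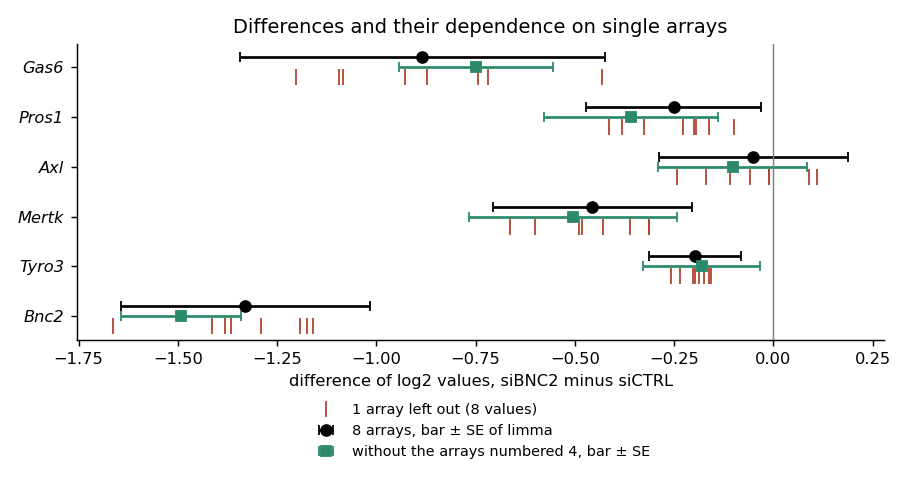
Difference of log2 values, siBNC2 minus siCTRL (x axis), for the 5 ligand and receptor genes and Bnc2, with all 8 arrays (circles, bars ± SE), without the arrays numbered 4 (squares, bars ± SE) and with each array left out in turn (ticks). The tick of Gas6 nearest to 0, at −0.43, is the value without siCTRL array 4, whereas the ticks of Axl lie on both sides of 0.

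Gas6 and Axl moved in opposite directions between arrays of the same group. After the mean of each group was taken away, their values over the 8 arrays had a Pearson r of −0.94, and over the 6 arrays without number 4 it was −0.85. Gas6 and Mertk moved together, with r = 0.70 over 8 arrays and 0.81 over those 6. Axl and Tyro3 had r = 0.56 and 0.77. Gas6 and Pros1 had r = 0.45 over 8 arrays but −0.40 over those 6, so that the positive sign of the ligand pair rested on the arrays numbered 4. These values describe 1 set of arrays and share its normalization. They were picked out of the 10 pairs of these 5 genes after the values were seen, and no p is attached to them.

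**Figure D3:**
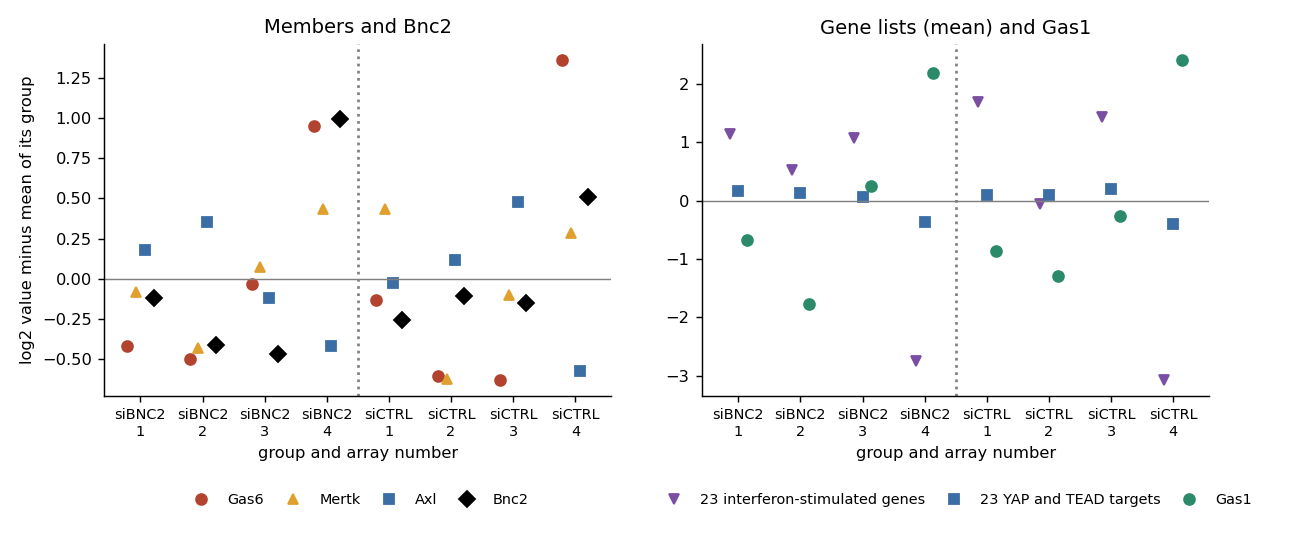
Log2 value minus the mean of its group (y axis) on each siBNC2 and siCTRL array (x axis), for Gas6, Mertk, Axl and Bnc2 (left panel) and for the mean of 23 interferon-stimulated genes, the mean of 23 targets of YAP and TEAD, and Gas1 (right panel, wider scale). On array 4 of both groups Gas6, Bnc2 and Gas1 are above their group mean, and Axl and both lists are below it.

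The promoters of Axl and Gas6 are shown because these genes had opposite patterns between arrays, and because Axl is a well-known target of YAP, a co-activator that reaches DNA through TEAD factors. For all 5 genes a window of 250 bases before a RefSeq transcript start (GRCm38.p6) was searched, and the sequences are given 5′ to 3′ on the strand of the gene. The RefSeq gene record of Axl reaches 191 bases into its window and that of Tyro3 covers all 250 bases, as these records begin upstream of the transcript start used. Only the part outside the gene record is shown, 59 bases at chr7:25788925-25788983 for Axl and 250 bases at chr8:13494536-13494785 for Gas6, both on the minus strand. Capitals mark the TEAD core GGAATG and the GC box GGGCGG on either strand.
Axl: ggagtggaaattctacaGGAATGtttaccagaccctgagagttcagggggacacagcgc
Gas6: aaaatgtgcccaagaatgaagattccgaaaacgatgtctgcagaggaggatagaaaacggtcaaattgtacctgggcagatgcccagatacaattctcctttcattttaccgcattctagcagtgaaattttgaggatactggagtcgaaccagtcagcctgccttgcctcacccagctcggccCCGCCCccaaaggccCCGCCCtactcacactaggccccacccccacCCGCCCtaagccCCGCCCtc
The Axl window held 1 TEAD core, in the part shown and at position −233 from that transcript start, and 1 GC box, in the part inside the gene record. The Gas6 window held 4 GC boxes and no GGAATG. The windows of Pros1, Mertk and Tyro3 held 5, 3 and 3 GC boxes, and also no GGAATG. Over 27025 promoters of the same length, 12.6% held GGAATG and 32.9% held GGGCGG on either strand. None of the 5 windows held the AP-1 site TGANTCA, found in 6.87% of promoters, or a pair of GAAA repeats 2 bases apart, the core of interferon response elements, found in 3.04%. The STAT element TTCNNNGAA, found in 7.18%, had 1 match, in Pros1. These matches describe the letters of the windows only, and none of the motifs overlapped another in the sequences shown.

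The mean of 23 other YAP and TEAD targets was, like Axl, low on array 4. Its mean was 11.21 on siBNC2 array 4, against 11.63 to 11.73 on the other siBNC2 arrays. On siCTRL array 4 it was 11.25, against 11.74 to 11.84 on the other siCTRL arrays. Beside 10.8% of all genes, 13 of the 23 were lowest on array 4 in both groups. Among them Ccn2, the matricellular protein often used as a reporter of YAP, read 8.55 on siBNC2 array 4 and 8.59 on siCTRL array 4, against 9.98 to 10.32 and 9.88 to 10.11 on the other arrays of siBNC2 and siCTRL. The coagulation initiator F3, or tissue factor, read 9.98 and 10.58 on array 4 of siBNC2 and siCTRL, and from 12.54 to 13.20 on all other arrays. Only 2 of the 23, Tgfb2 and Arhgef17, were highest on array 4 in both groups, as Gas6 and 13.4% of all genes were. Between siBNC2 and siCTRL, 14 of the 23 had a lower and 9 a higher mean, with a median of −0.01, and 0 passed with limma. Igfbp3, a carrier of insulin-like growth factors and the gene of this list with the smallest p, differed by −1.02 ± 0.53 (SE), or −0.50 without siBNC2 array 2. The genes named here for their values on array 4 were chosen after those values were seen. Whether YAP or TEAD has a part in the Axl values on array 4 was not tested.

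Gas6 takes its name from growth arrest-specific genes, which were cloned from serum-starved mouse fibroblasts. Of 4 others measured, Gas1 and Pmp22 (once called Gas3) were, like Gas6, highest on array 4 in both groups, beside 13.4% of all genes. Gas1, a membrane protein that can block entry into S phase, read 7.95, 6.85, 8.88 and 10.80 on the siBNC2 arrays and 8.84, 8.42, 9.44 and 12.11 on the siCTRL arrays. The groups overlapped, and the difference was −1.08 ± 0.93 (SE). Array 4 stood 2.91 above the mean of the other siBNC2 arrays and 3.21 above that of the other siCTRL arrays. That step widens this SE. Pmp22, a myelin membrane protein, read 9.68, 9.44, 9.89 and 9.95 on the siBNC2 arrays against 9.94, 9.77, 10.07 and 10.64 on the siCTRL arrays, and differed by −0.37 ± 0.20, or −0.19 without siCTRL array 4. Gas2 and Gas7 differed by −0.15 ± 0.16 and 0.05 ± 0.12. Over these 4 genes the median difference was −0.26, with 3 below 0, beside 0.01 over all genes, and 0 passed with limma.

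Among genes that mature and release the ligands and receptors, 0 passed with limma, as over all genes. The SE reached 0.31 for Ggcx and 0.51 for Nqo1, so a lack of difference was not shown. For 6 genes of carboxylation and propeptide removal the median difference was −0.05, 5 were below 0, and 0 passed with limma. Furin, the proprotein convertase, had the smallest p of them and differed by −0.20 ± 0.20 (SE), or −0.04 without siBNC2 array 3. The carboxylase Ggcx, which modifies the Gla domain of Gas6 and protein S, differed by −0.15 ± 0.31. It read 10.85, 11.12, 10.85 and 12.14 on the siBNC2 arrays and 11.13, 11.02, 11.40 and 12.00 on the siCTRL arrays. Array 4 was the highest in both groups, as for 1 of the 6 genes of this list and 13.4% of all genes. Of 5 genes of receptor shedding 3 were lower in mean and 0 passed. The metalloproteases Adam17 and Adam10, which cut TAM receptors from the cell surface, differed by −0.29 ± 0.15 and −0.21 ± 0.18, and Adam17 by −0.18 without siCTRL array 3. Of the other proteins reported as TAM ligands, galectin-3 (Lgals3) differed by 0.16 ± 0.19, Tub by 0.12 ± 0.12 and Tulp1 by −0.22 ± 0.13, the last 2 with means below 5.66. Among 12 other vitamin K-dependent Gla proteins 9 were lower in mean, with a median of −0.03 and 0 past the threshold, and the smallest p was that of Prrg2 at −0.13 ± 0.14, or −0.03 without siCTRL array 1.

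Genes that govern the exposure of phosphatidylserine, the lipid the ligands bind, comprised scramblases, which expose it, and flippase chains (Atp11a and Tmem30a), which take it inward. Of 6 measured, 5 were lower in mean, the median difference was −0.20, and 3, the scramblases Ano6 and Xkr9 and the flippase chain Tmem30a, had an unadjusted p under 0.05, all lower, where 1.33% of all genes were lower at that p. After adjustment over all genes 0 passed with limma (adjusted p = 1.00 for each). The scramblase Ano6 read 13.24, 13.22, 13.36 and 13.60 on the siBNC2 arrays, against 13.52, 13.75, 13.81 and 13.84 on the siCTRL arrays. Only siBNC2 array 4 reached into the siCTRL range. Ano6 differed by −0.38 ± 0.13 (SE), or 1.30-fold lower in siBNC2. Tmem30a, the partner chain of the flippases that take phosphatidylserine inward, read 14.02, 14.17, 14.22 and 14.34 on the siBNC2 arrays and 14.33, 14.35, 14.60 and 14.58 on the siCTRL arrays, a difference of −0.28 ± 0.12. Xkr9, a scramblase cut by caspases, differed by −0.34 ± 0.14 with a mean below 5.66.

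Signal transducers of the receptors went both ways. Of 23 measured, 13 had a higher and 10 a lower mean in siBNC2, the median was 0.02, and 3 had an unadjusted p under 0.05, 1 higher and 2 lower, where 1.86% of all genes were higher and 1.33% lower at that p. The adaptor Crk read 12.62, 12.88, 13.00 and 12.82 on the siBNC2 arrays, all above the siCTRL arrays at 12.19, 12.23, 12.50 and 12.28. The difference of 0.53 ± 0.13 (SE), or 1.45-fold higher, had an adjusted p of 1.00 with limma. The adaptor Nck2 read 8.11, 7.94, 8.31 and 8.12 on the siBNC2 arrays, all below the siCTRL arrays at 8.55, 8.39, 8.52 and 8.82, and differed by −0.45 ± 0.13 (adjusted p = 1.00 with limma). Groups that did not overlap, as for Crk and Nck2, were seen for 2.16% of all genes, and for 0.798% with siBNC2 lower. Pik3r2, a regulatory subunit of phosphoinositide 3-kinase, differed by −0.63 ± 0.25, or −0.37 without siCTRL array 4. Among 4 measured genes of cytokine signal inhibition, a branch that TAM receptors engage in immune cells, 3 were lower in mean and 0 passed. Socs3, a feedback inhibitor of cytokine receptors, differed by −0.23 ± 0.18, or −0.14 without siCTRL array 4. Interferon-stimulated genes had 15 of 23 members with a higher mean, a median of 0.12 and 0 past the threshold. On array 4 of both groups 22 of the 23 were lowest, beside 10.8% of all genes. Ifit3, an antiviral effector and the gene of this list with the smallest p, differed by −0.18 ± 0.32, and its sign turned without siCTRL array 1 (0.13) or siBNC2 array 4 (0.03). Whether the low interferon-stimulated genes have a part in the Gas6 and Axl values on those arrays was not tested.

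**Figure D4:**
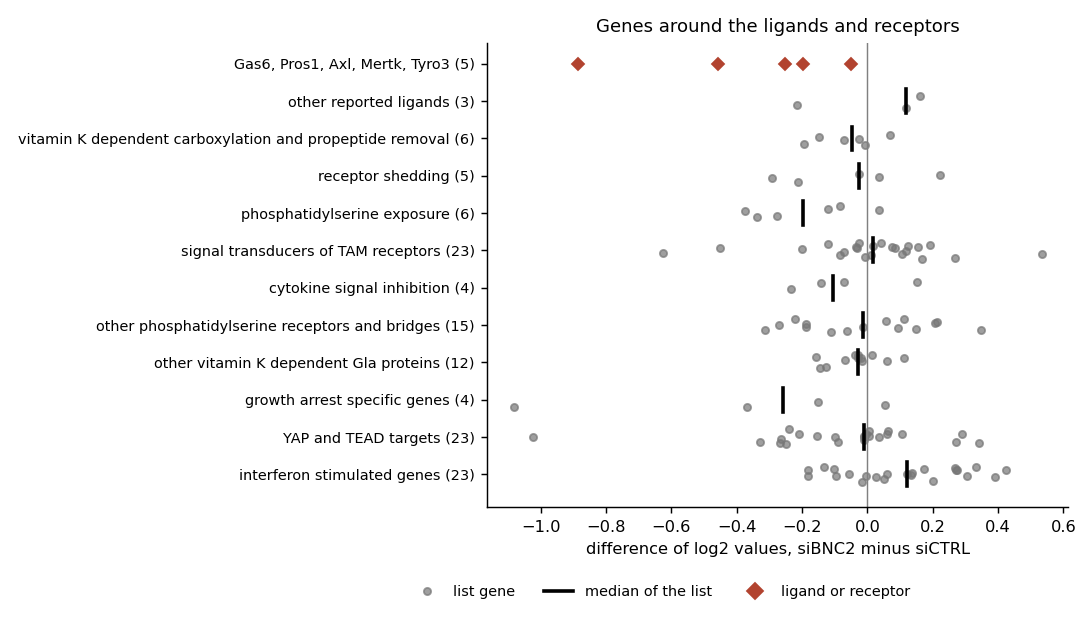
Difference of log2 values, siBNC2 minus siCTRL (x axis), for Gas6, Pros1, Axl, Mertk and Tyro3 (diamonds) and for the genes of 11 lists around them (points, number of genes in brackets, bar at the median). The medians of the lists lie between −0.26 and 0.12, and Gas6 at −0.88 lies outside the range of every list except those with Gas1 and Igfbp3. Gas6 was picked with its array values known. Its SE was 0.46, and its difference was −0.43 without siCTRL array 4.

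Of the 13307 other genes with a mean of at least 5.66, those whose values over the 8 arrays were most like each member were found by the Pearson correlation, given here as a description of 8 arrays that share their normalization. For Gas6 they were Gpc3 (r = 0.97), the gene of the heparan sulfate proteoglycan glypican-3, the transcription factor gene Mxd3 (r = 0.97) and the actin regulator gene Coro1a (r = 0.97), with Spearman's rho of 0.98, 0.86 and 1.00. Gpc3 read 7.01, 6.81, 6.97 and 7.88 on the siBNC2 arrays and 7.64, 7.45, 7.32 and 8.35 on the siCTRL arrays. Without the 2 arrays farthest from the median of Gas6, siCTRL array 4 and siBNC2 array 2, r was 0.95 for Gpc3 and 0.89 for both Mxd3 and Coro1a. For Axl they were Nom1, Tmem63a and the urokinase gene Plau, with r from 0.96 to 0.98, and Plau, a serine protease of matrix remodelling, read 10.09, 10.22, 9.87 and 9.29 on the siBNC2 arrays and 9.96, 10.09, 10.24 and 9.32 on the siCTRL arrays. For Mertk they were Arl16, Rfx3 and Hps4, with r from 0.96 to 0.98, and for Pros1 they were Dnajc14, Dennd4c and Efr3a, with r from 0.98 to 0.99. Tyro3 had the loosest company, with Mettl25, Nfyb and Topors at r from 0.92 to 0.94. The number of genes with r over 0.9 was 98 for Gas6, 257 for Pros1, 67 for Axl, 39 for Mertk and 4 for Tyro3.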

How the data were processed

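Biotin-labelled RNA of 8 EMS404 samples was read on Affymetrix arrays of mouse genes. The authors ran Affymetrix Power Tools through GIANT (correction for GC content, intensity scaling, RMA at core-gene level), and the deposited values are log2 values per probe set, background-corrected and quantile-normalized. The log base follows from RMA. Quantile normalization removes a shift shared by most genes. A genome build is not given in the sources used here.

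Of 41345 probe sets, the 23521 with 1 symbol in the platform annotation were averaged per symbol, giving 22180 genes. Entrez identifiers matched 23328 of these probe sets to RefSeq, with 0 symbols updated. Pairs of arrays correlated with r from 0.983 to 0.996, and 0 were identical. The number of arrays limits the precision.

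siBNC2 was compared with siCTRL by limma 3.58.1 in R 4.3.3 (group as the only term, two-sided, Benjamini-Hochberg over all genes, threshold 0.05), and single genes by exact permutation. Gas6 was not tested. The members, lists and rules were chosen with earlier results of these data known. Named from each list were genes with an unadjusted p under 0.05, or the gene with the smallest p, and for each member the 3 genes with the highest r. Other genes were named after their values were seen. The scripts were tested on simulated data. Alternatives were renormalization, probe set choice, filters, prior, weights, the replicate number as a block and leaving out arrays.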

Additional observations from a re-analysis of the deposited data

How the results depend on the processing

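All settings gave 0 genes past the adjusted threshold, over all genes and over the 124 list genes. Beside 708 genes at an unadjusted p under 0.05, the count was 1207 with the replicate number as a block, 1534 over all 41345 probe sets, 1099 without siBNC2 array 4 and 312 of 13308 genes above the 40th percentile. Deviations of same-numbered arrays from their group means correlated over all genes with r = 0.39, 0.42, −0.00 and 0.67 for numbers 1 to 4, and array 3 of siBNC2 and arrays 1 and 3 of siCTRL did not correlate best with their own number, so the numbers were not taken as pairs. The study states that compared groups were handled together in each round, but no source ties a number to a round. Differences between same-numbered arrays ran from −1.29 to −0.29 for Gas6 and from −0.97 to −0.27 for Mertk. Such differences were all below 0 for 6.46% of genes. With the block, which takes the numbers as pairs, the SE of Gas6 was 0.18. As Gas6 was picked with its array values known, that share and this SE are no test of it. Mertk had an SE of 0.15 and an unadjusted limma p of 0.0168, under 0.05 unlike without the block. In that fit 5.44% of all genes had an unadjusted p under 0.05. The adjusted p with the block was 0.94 for Pros1, 0.99 for Axl, 0.85 for Mertk and 0.94 for Tyro3. Leaving out single arrays gave −1.20 to −0.43 for Gas6, −0.41 to −0.10 for Pros1, −0.24 to 0.11 for Axl, −0.66 to −0.31 for Mertk, −0.26 to −0.16 for Tyro3 and −1.66 to −1.16 for Bnc2. Settings that kept every array, or left out both arrays numbered 4, gave −0.94 to −0.75 for Gas6, −0.36 to −0.21 for Pros1, −0.51 to −0.43 for Mertk and −0.21 to −0.16 for Tyro3. Of the 15 named list genes only Ifit3 changed sign, from −0.34 to 0.13 when single arrays were left out (0.03 without siBNC2 array 4). The alternatives for Bnc2 and the list genes were added after the data were seen. The cause of these shifts was not tested.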

Other observations

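Other receptors and bridges for phosphatidylserine were measured beside the TAM family. The median difference of 15 genes was −0.01, with 8 below 0 and 7 above it, and 0 passed with limma. Only the scavenger receptor gene Scarf1 had an unadjusted limma p under 0.05, with a difference of 0.35 ± 0.12 (SE). At that p, 1.86% of all genes were higher in siBNC2. The siCTRL mean of Scarf1 was just below 5.66, and 8 of the 15 genes had a mean over all arrays below that cut. Mfge8, the secreted bridge to integrins that parallels Gas6, read 12.32, 12.67, 12.11 and 12.25 on the siBNC2 arrays and 12.25, 12.68, 12.39 and 12.47 on the siCTRL arrays, with overlapping groups and a difference of −0.11 ± 0.15. The endocytic receptor Lrp1 was, like Gas6, highest on array 4 in both groups, at 13.18 in siBNC2 and 13.27 in siCTRL. Its other arrays read 12.56 to 12.63 in siBNC2 and 12.55 to 13.20 in siCTRL, where array 3 came close to array 4. The matrix glycoprotein thrombospondin-1 (Thbs1) was, like Axl, lowest on array 4 in both groups. It read 13.85 in siBNC2 and 14.01 in siCTRL there, against 14.90 to 15.61 on all other arrays. The quinone reductase Nqo1 was also lowest on array 4, at 11.71 in siBNC2 and 11.48 in siCTRL. These genes were chosen after their values were seen. Of the 15 receptor and bridge genes, array 4 was highest in both groups for 3 and lowest for 3, beside 13.4% and 10.8% of all genes.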
